A study of Mus musculus with 3 samples.

Results

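The Toll-like receptors and the NF-kB pathway were examined in mouse bone marrow-derived dendritic cells (BMDC) as a list of 55 genes, from the receptors and their helper proteins through adaptors and kinases to the NF-kB subunits and their inhibitors. A listed gene was taken where a probe set of the array names it alone, and of several the one with the highest mean was used. That held for 49 of the 55, among 19938 genes measured in all. Tlr5, Tlr11, Irak4, Traf3, Chuk and Nfkb1 had no such probe set and were not analysed here. Total RNA of 3 samples was measured, each on its own Affymetrix whole-transcript array, and all 3 belong to a single group. Marrow of C57BL/6J mice, an inbred strain with no allele or transgene named in the labels, was seeded at 2000000 cells per well and cultured for 9 days with murine GM-CSF and murine IL-4, both at 20 ng/ml. No microbial stimulus, untreated control or age is named. Whether the samples came from different animals or cultures is not stated, so the spread between them may be technical.

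Toll-like receptors are membrane proteins that bind parts of microbes. Those on the cell surface sense lipids and proteins of bacteria, and those in endosomes sense nucleic acids or proteins of engulfed microbes. Bound receptors gather adaptors such as MyD88 and TRIF through shared TIR domains. The adaptors engage IRAK kinases and TRAF ubiquitin ligases, which activate the kinase TAK1 and then the IKK complex. IKK marks the inhibitor IkB for destruction, and the freed NF-kB subunits enter the nucleus. Several inhibitors in the pathway, IkB alpha and A20 among them, are themselves known targets of NF-kB and close a feedback loop. Dendritic cells use this pathway to sense infection and to begin maturation.

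The promoters of some feedback genes, those for IkB alpha and A20 among them, carry the letters that NF-kB dimers are known to recognize. Examples from these and other members are shown here because a later comparison between members refers to them. RefSeq promoter windows (GRCm38.p6) were found for 43 of the 55 genes, and the 250 bases before each start were searched on both strands. In the following sequences, written 5' to 3' on the strand of the gene, capitals mark matches to the NF-kB consensus on either strand (GGG, a purine, 2 bases of any kind, 2 pyrimidines and CC), and overlapping matches share a run of capitals.
Nfkbia promoter, chr12:55492648-55492897, minus strand: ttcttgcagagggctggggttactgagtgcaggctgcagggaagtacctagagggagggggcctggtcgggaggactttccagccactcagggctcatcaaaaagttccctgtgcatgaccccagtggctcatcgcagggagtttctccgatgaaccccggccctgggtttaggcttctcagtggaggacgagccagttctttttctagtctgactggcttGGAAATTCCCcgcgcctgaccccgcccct
Nfkb2 promoter, chr19:46304487-46304736, plus strand: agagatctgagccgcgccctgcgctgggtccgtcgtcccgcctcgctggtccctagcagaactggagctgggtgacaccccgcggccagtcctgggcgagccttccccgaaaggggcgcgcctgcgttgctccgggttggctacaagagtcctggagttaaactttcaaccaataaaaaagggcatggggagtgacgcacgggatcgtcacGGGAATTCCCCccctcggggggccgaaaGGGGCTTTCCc
Rel promoter, chr11:23770970-23771219, minus strand: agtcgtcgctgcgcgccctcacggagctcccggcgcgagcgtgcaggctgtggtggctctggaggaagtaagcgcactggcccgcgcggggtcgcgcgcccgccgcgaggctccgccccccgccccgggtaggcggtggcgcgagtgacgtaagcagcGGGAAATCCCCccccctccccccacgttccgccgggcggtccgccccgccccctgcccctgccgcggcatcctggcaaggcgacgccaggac
Tnfaip3 promoter, chr10:19015411-19015660, minus strand: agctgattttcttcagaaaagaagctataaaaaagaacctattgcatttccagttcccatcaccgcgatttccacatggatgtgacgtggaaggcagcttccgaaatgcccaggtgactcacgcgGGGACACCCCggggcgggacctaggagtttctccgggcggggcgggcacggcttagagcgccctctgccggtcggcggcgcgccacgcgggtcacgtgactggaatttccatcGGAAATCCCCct
Tnip1 promoter, chr11:54962941-54963190, minus strand: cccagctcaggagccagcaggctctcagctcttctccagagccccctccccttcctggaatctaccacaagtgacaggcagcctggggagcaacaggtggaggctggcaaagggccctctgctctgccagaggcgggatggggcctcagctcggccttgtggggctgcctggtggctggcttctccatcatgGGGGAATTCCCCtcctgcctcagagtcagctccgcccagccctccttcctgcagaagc
Tlr2 promoter, chr3:83841609-83841858, minus strand: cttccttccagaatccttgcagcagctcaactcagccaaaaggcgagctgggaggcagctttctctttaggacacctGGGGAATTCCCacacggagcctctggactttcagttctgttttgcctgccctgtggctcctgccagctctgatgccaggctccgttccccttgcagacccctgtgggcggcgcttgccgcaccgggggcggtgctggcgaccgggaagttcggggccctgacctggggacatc

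Nfkbia and Tnip1 encode inhibitors of the pathway, Tnfaip3 encodes the ubiquitin-editing enzyme A20, Nfkb2 and Rel encode NF-kB subunits, and Tlr2 encodes a receptor for bacterial lipoproteins. Another 4 measured members held a match, each shown as it reads on the strand of the gene.
Irak1, from chrX:74023919-74024168, minus strand: GGGACGCCCC
Map3k7, from chr4:31963857-31964106, plus strand: GGAAATTCCC
Nfkbie, from chr17:45555450-45555699, plus strand: GGGGGATTCC
Tlr3, from chr8:45410381-45410630, minus strand: GGGAGTTTCC

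Of the 43 genes with a promoter window, 11 (25.6%) held a match to the NF-kB consensus in at least 1 window, against 8.23% of the 27025 genes in the promoter table. The eleventh gene was Traf3, which has no expression value here. A stricter form, GGGA followed by 2 bases of any kind and TTCC, whose every match is also a consensus match, was found in 4 members (9.3%), against 1.36% of all genes. GGG followed by 2 bases of any kind and TTTCC, which overlaps the consensus where a purine follows GGG, was found in 7 members (16.3%), against 1.65% of all genes. The interferon response motif, GAAA followed by 2 bases of any kind and GAAA, was found in 3 members (6.98%), against 3.46% of all genes, and these were Myd88, Tlr6 and Tlr11. GAGGAA, the core bound by the myeloid factor PU.1, was found in 14 members (32.6%), against 25.9% of all genes. A match describes letters and is no evidence of binding.

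Nearly all measured members were detected. A gene counted as detected, or above background, if its log2 value exceeded in every array the 95th percentile of that array's 1205 probe sets of olfactory and vomeronasal receptor genes, which serve smell and pheromone sensing. These limits were 5.54, 5.54 and 5.55 in replicates 1, 2 and 3. By this rule 48 of 49 members (98.0%) were above background, against 60.5% of all genes. With the limit at the 99th percentile, 46 members remained above it, against 46.2% of all genes. With a limit taken from 50 measured genes of other tissues, such as those for albumin or keratins, 46 members were above it too, against 45.3% of all genes. Probe sets bind with different strength, so a call is a rough statement of detection, and the level of a gene cannot be set against that of another. In bulk RNA, fewer cells of a type and less RNA per cell cannot be told apart.

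**Figure D1:**
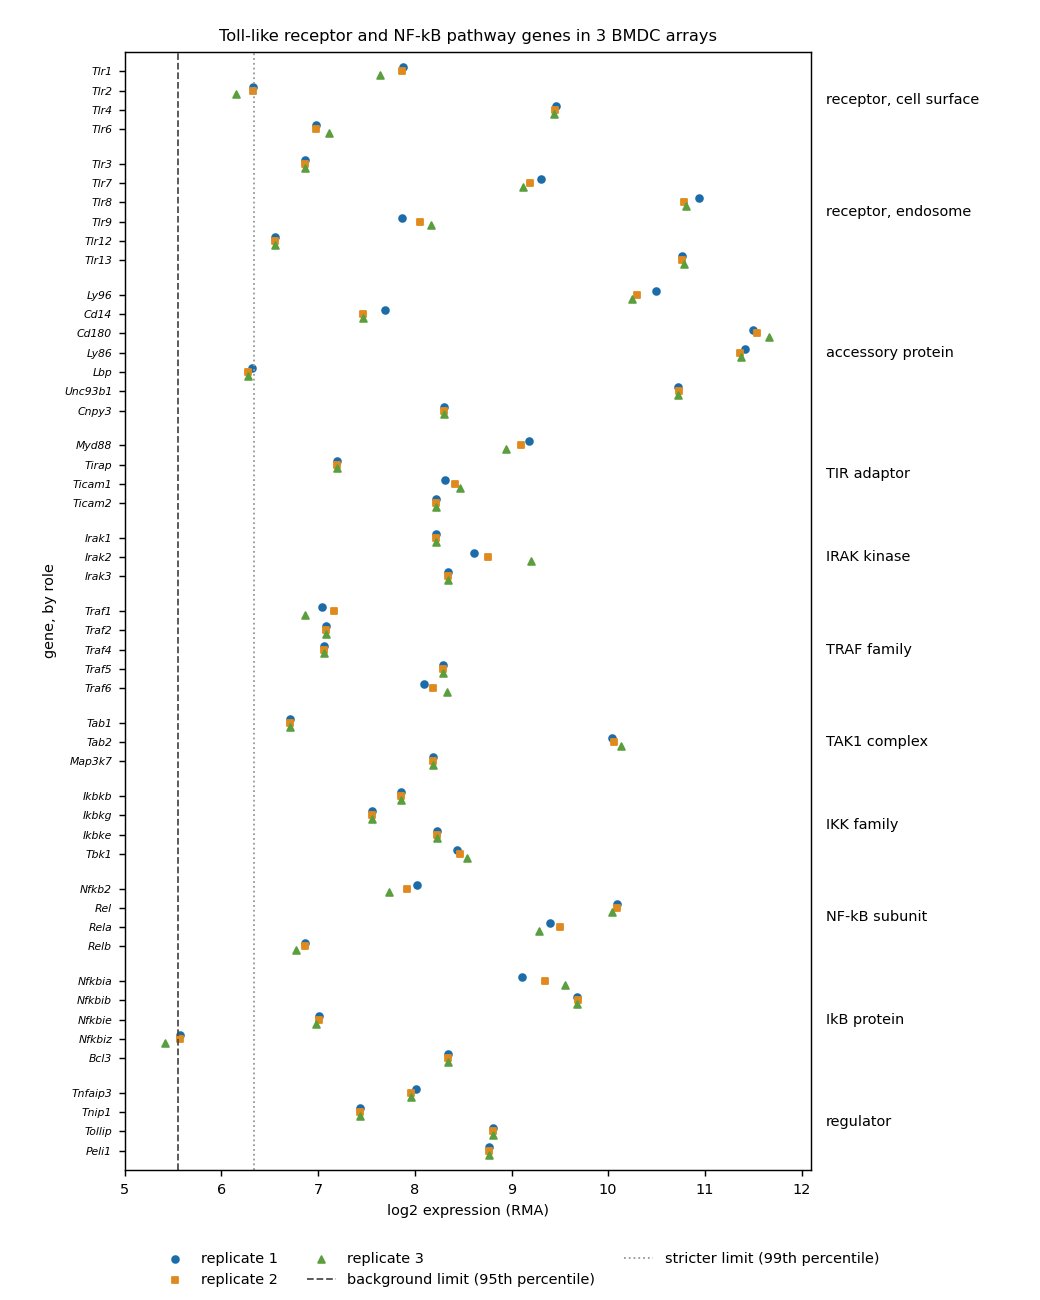
Log2 expression (x axis) of the 49 measured genes (y axis, grouped by role) with 1 point per array. The dashed and dotted lines are the highest of the 3 arrays' background limits at the 95th and 99th percentile, and Nfkbiz is the only gene with a point left of the dashed line.

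**Figure D2:**
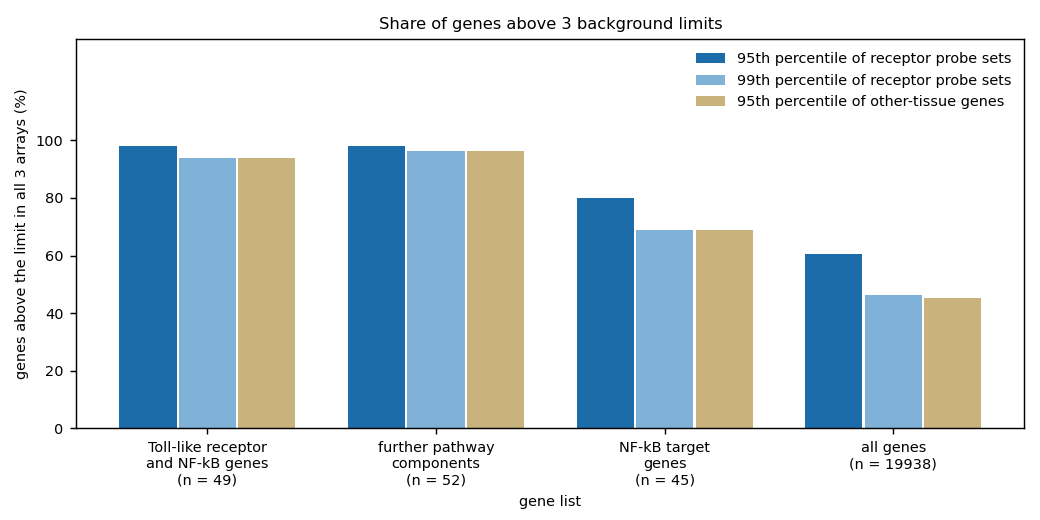
Share of genes above each of 3 background limits in all 3 arrays (y axis, percent), for the 49 members, 52 further pathway components, 45 NF-kB target genes and all 19938 genes. The share of members is 98.0% at the 95th percentile, against 60.5% for all genes.

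Markers of several cell types were also counted. Of the dendritic cell markers 7 of 10 were above background, with Flt3, Cd209a and Xcr1 not above it. Of the macrophage markers 7 of 9 were, with Cd163 and Vsig4 not above it. Over all genes the share was 60.5%, so these counts do not settle the identity of the culture. B cell markers reached 2 of 7, with Cd79a and Ms4a1 not above background, and plasmacytoid dendritic cell markers 3 of 7, with Siglech and Ccr9 not above it. The arrays correlated at 0.994 to 0.996 (Pearson's r across 35556 probe sets). Arrays stood apart in some lists. The summed linear signal of 10 NK cell markers was 5349, 4174 and 2412 in replicates 1, 2 and 3, with Ncr1, Klrd1, Klrk1 and Klre1 not above background. That of 14 cell cycle genes was 3915, 3355 and 2563. Neutrophil markers (826, 671 and 405) and mast cell and basophil markers (756, 866 and 377) were also lowest in replicate 3, and 9 T cell markers had 4769, 4680 and 4540. Of the 8 T cell markers above background, 6 were lowest in replicate 3, among them Cd3e (9.09, 8.79 and 8.15). Only 1, the strong Il7r (11.63, 11.71 and 11.79), was highest there, so the sum hides the lower values. The sum of 8 stromal markers was highest in replicate 1, with 1297, 446 and 469.

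All 4 measured receptors of the cell surface were above background. Tlr4, which senses lipopolysaccharide together with MD-2, had 9.46, 9.45 and 9.44 log2 units in replicates 1, 2 and 3. Tlr1, which pairs with TLR2 to bind triacylated lipopeptides, had 7.87, 7.87 and 7.64, lowest in replicate 3. Tlr6, the partner of TLR2 for diacylated lipopeptides, had 6.98, 6.98 and 7.11, highest in replicate 3. Tlr2 itself had 6.33, 6.33 and 6.15. It lay above the limit in each array, but in replicate 3 not above the 99th percentile (6.33), so the detection of this shared partner rested on the lower limit.

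All 6 measured receptors of the endosome were above background at either percentile. Tlr3, which binds viral RNA duplexes, had 6.87 in each array. Tlr7 and Tlr8 belong to the receptors of RNA. Tlr7 had 9.30, 9.19 and 9.12, while Tlr8 had 10.94, 10.78 and 10.80, both highest in replicate 1. Tlr9, the sensor of unmethylated CpG DNA, had 7.87, 8.05 and 8.17 and spanned 0.30 log2 units, with its lowest value in replicate 1. Tlr13, which in mice recognizes a sequence of bacterial ribosomal RNA, had 10.76, 10.76 and 10.79. Tlr12, which in mice senses profilin of parasites, had 6.55 in each array. Tlr7 and Tlr9 are also known from B cells and plasmacytoid dendritic cells. The summed linear signal of the 7 measured B cell markers was 258, 258 and 243 in replicates 1, 2 and 3, and that of the 7 plasmacytoid markers 997, 992 and 952. Only 2 of these B cell markers were above background, and 0 above the 99th percentile. Of the plasmacytoid markers only Bst2, Tcf4 and Cox6a2 were above background. The part of these cells in the receptor values was not tested.

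All 7 accessory genes were above background. Ly96, which encodes MD-2, the lipopolysaccharide-binding partner of TLR4, had 10.49, 10.30 and 10.25, highest in replicate 1. Cd14, the coreceptor that hands lipopolysaccharide to TLR4 and MD-2, had 7.69, 7.47 and 7.47. Cd180 and Ly86 encode RP105 and MD-1, which form a complex resembling TLR4 and MD-2. Cd180 had 11.50, 11.54 and 11.67, and Ly86 had 11.42, 11.37 and 11.38. Unc93b1, the chaperone that takes the nucleic acid receptors to endosomes, had 10.73, 10.73 and 10.72. Cnpy3, a folding factor of the receptors in the endoplasmic reticulum, had 8.30 in each array. Lbp, a serum protein made mainly by liver that transfers lipopolysaccharide to CD14, had 6.31, 6.27 and 6.27 and was not above the 99th percentile in every array. The genes Tlr4, Ly96 and Cd14 of the lipopolysaccharide receptor were thus each above the stricter limit too.

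The 4 TIR adaptors were all above background. Myd88, used by nearly all of the receptors, had 9.18, 9.10 and 8.94, lowest in replicate 3. Ticam1, which encodes TRIF, the adaptor of TLR3 and of internalized TLR4, had 8.31, 8.41 and 8.47, lowest in replicate 1. Their sorting partners, Tirap (7.20) and Ticam2 (8.21), had identical values in the 3 arrays. Tirap brings MyD88, and Ticam2 brings TRIF, to the receptor.

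Among the kinases and ubiquitin ligases downstream, Irak2 differed most between arrays. Irak2, which sustains signalling after IRAK4 and IRAK1 have started it, had 8.62, 8.76 and 9.20, a span of 0.59 log2 units or 1.50-fold, highest in replicate 3. It averaged 8.86 ± 0.31 (SD, n = 3). Irak1 (8.22) and Irak3 (8.35), which encodes the inhibitory IRAK-M, were identical in the arrays. Irak2 was the only member spanning more than 0.5 log2 units, that is 1 of 48 members above background (2.08%), against 2.61% of all genes above background. That share was near the one of all genes.

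Of the TRAF family all 5 measured members were above background. Traf6, the ubiquitin ligase that activates TAK1, had 8.09, 8.19 and 8.33, highest in replicate 3. Traf1, itself a known NF-kB target and a modifier of TRAF2 signalling, had 7.04, 7.17 and 6.86, lowest in replicate 3. Traf2 (7.08) and Traf5 (8.29), best known from receptors of the TNF family, and their relative Traf4 (7.06) were identical in the arrays. In the TAK1 complex, Map3k7, the kinase TAK1, had 8.19 in each array and its activator Tab1 had 6.71 in each. Tab2, which binds ubiquitin chains and links TAK1 to TRAF6, had 10.04, 10.06 and 10.14.

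The kinases that act on IkB and on interferon regulatory factors were above background in all 4 measured cases. Ikbkb (7.86), the catalytic kinase of canonical signalling, Ikbkg (7.55), its scaffold NEMO, and Ikbke (8.23), an IKK-related kinase, were identical in the 3 arrays. Tbk1, which phosphorylates IRF3, had 8.43, 8.46 and 8.54.

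The 4 measured NF-kB subunit genes were above background, and each was lowest in replicate 3. Rela, which encodes the main transactivating subunit p65, had 9.40, 9.50 and 9.29. Rel, which encodes c-Rel, a subunit known from the induction of interleukin 12 genes, had 10.10, 10.10 and 10.04. Nfkb2, the precursor of p52 in the alternative pathway, had 8.03, 7.92 and 7.73, a span of 0.29 log2 units, and averaged 7.89 ± 0.15 (SD, n = 3). Relb, the partner of p52, had 6.87, 6.87 and 6.77. The mean deviation of these genes from their own 3-array means was 0.048, 0.045 and -0.093 in replicates 1, 2 and 3. Over all members not identical in the arrays, 13 of 29 (44.8%) were lowest in replicate 3, against 37.8% of all such genes.

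The inhibitors of the IkB family differed among themselves. Nfkbia, which encodes IkB alpha, the quickly remade inhibitor of RELA dimers, had 9.10, 9.35 and 9.55, a span of 0.45 log2 units or 1.36-fold, lowest in replicate 1 and highest in replicate 3. It averaged 9.33 ± 0.22 (SD, n = 3). Nfkbib (9.68, 9.69 and 9.68), the slower inhibitor IkB beta, and Nfkbie (7.004, 7.004 and 6.973), IkB epsilon, moved by 0.0312 log2 units at most. Bcl3, a nuclear member of the family that acts with p50 and p52, had 8.34 in each array. Nfkbiz, the nuclear IkB zeta known in mouse macrophages as a coactivator of Il6, had 5.57, 5.57 and 5.42. It was the single member not above background, by replicate 3 alone: replicates 1 and 2 lay just over the limit, and without replicate 3 all 49 members were above it.

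The 4 regulators of the pathway were all detected. Tnfaip3, whose product A20 removes ubiquitin chains from signalling proteins, had 8.01, 7.96 and 7.96. Tnip1 (7.43), which binds A20 and ubiquitin, Tollip (8.81), an adaptor that restrains IRAK1, and Peli1 (8.77), a ubiquitin ligase known to act in TRIF signalling, were identical in the arrays. Identical values were common among members, with 19 of 48 (39.6%) the same in all 3 arrays, against 46.5% of all genes above background. In 20 members (41.7%) the 3 values differed, against 25.1% of all genes. An SD of 0 in such genes is no measure of precision.

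Single members went opposite ways across the arrays, and 19 of the 48 above background had no deviation at all. The mean deviation over the 48 members above background was 0.0004 in replicate 1, 0.0014 in replicate 2 and -0.0019 in replicate 3, a range of 0.0033 log2 units, against 0.0173 for all genes above background. With the arrays centred on the median of the genes above background the range was 0.016 for members, against 0.00358 for all genes, and over genes with 3 different values it was 0.022, against 0.0673. The median span of a member was 0.036 log2 units, against 0.0096 for all genes above background. Over the same arrays the mean deviation of the 6 NK cell markers above background was 0.40, 0.15 and -0.55, among them Gzma, Gzmb, Il2rb and Eomes, which T cells can also express. That of 8 T cell markers was 0.19, 0.03 and -0.22, and that of 14 cell cycle genes was 0.33, 0.08 and -0.41. In 5 members (10.4%) the span exceeded 0.25 log2 units, against 8.49% of all genes above background. Of these, Irak2, Nfkbia and Tlr9 were lowest in replicate 1 and highest in replicate 3, whereas Traf1 and Nfkb2 were lowest in replicate 3. The mean deviation of the 7 macrophage markers above background was 0.106, 0.015 and -0.121. That of the 7 dendritic cell markers above background was -0.039, -0.009 and 0.048. Their median deviation in replicate 3 was 0, with 3 of the 7 identical in the arrays and 3 highest in replicate 3. Only Clec9a (9.27, 9.38 and 9.70) spanned more than 0.25 log2 units. The part of the macrophage, dendritic cell, lymphocyte, cell cycle, mast cell, neutrophil and stromal marker differences in the members' spans was not tested.

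**Figure D3:**
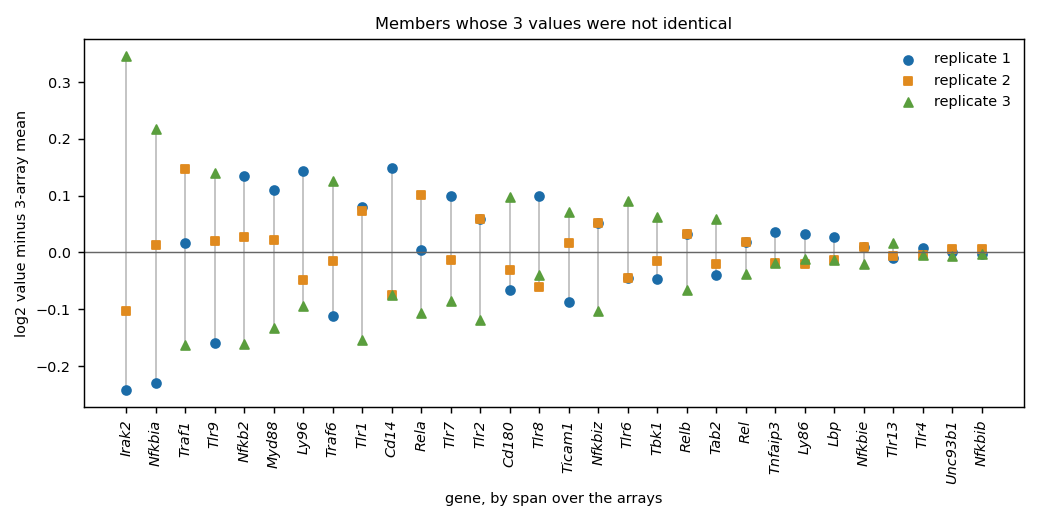
Log2 value minus the gene's 3-array mean (y axis) for the 30 measured members whose values were not identical in the arrays (x axis, ordered by span), with 1 point per array and a grey line over the span. Irak2 and Nfkbia reach farthest, with replicate 3 on top, while Traf1, Nfkb2 and Myd88 have replicate 3 at the bottom.

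**Figure D4:**
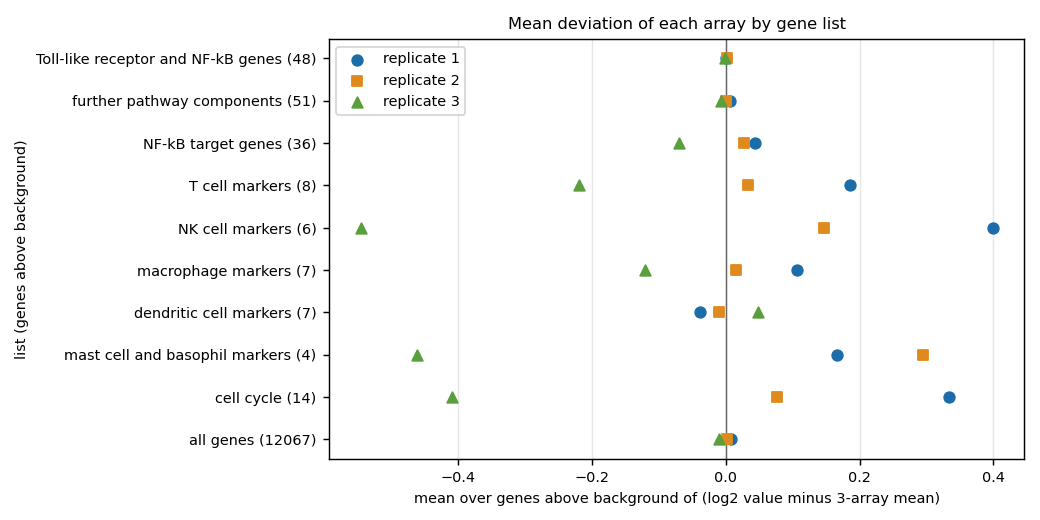
Mean deviation of each array (x axis, log2 units) over the genes above background of 10 lists (y axis, number of genes in brackets), with 1 point per array. The points of the Toll-like receptor and NF-kB genes lie within 0.0033 log2 units of each other, while those of the NK cell and cell cycle lists have replicate 3 far to the left.

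Spans were also set beside the promoter sequences shown above. Of 10 such members above background, 2 spanned more than 0.25 log2 units, Nfkbia and Nfkb2, and their median span was 0.043. Of 28 members with a promoter window and no match, 3 spanned more than 0.25, with a median of 0.039. Among all genes above background 8.49% spanned more than 0.25. Nfkbia and Nfkb2, both with matches, had opposite orders, replicate 3 being highest for Nfkbia and lowest for Nfkb2. Irak2, with the widest span, had no match in its window. A link between matches and spans was not tested.

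Further components of the pathway, such as chaperones, ubiquitin enzymes and scaffolds, were taken from a separate list. Of 52 measured, 51 (98.1%) were above background, against 60.5% of all genes. The exception was Sarm1 (5.10 in each array), a TIR protein that acts as an NADase in neurons. Tnip3, a relative of Tnip1, had 9.84, 9.65 and 9.33. It was the only 1 of those 51 spanning more than 0.5 log2 units, against 2.61% of all genes above background. Hsp90b1, the chaperone gp96 that folds Toll-like receptors, had 11.13, 10.94 and 10.81. Otulin, which removes linear ubiquitin, had 8.10, 8.05 and 7.82, and Malt1, a paracaspase, had 8.88, 8.94 and 9.14. Usp18, Map3k14, Bcl10 and Tifa spanned 0.143 to 0.184 log2 units.

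Known targets of NF-kB, chosen from the literature, include cytokine, chemokine and survival genes. Of 45 measured, 36 (80.0%) were above background, against 60.5% of all genes. A span over 0.5 log2 units was seen in 6 of the 36, against 315 of 12067 genes above background (2.61%). For a span over 0.25 these were 15 of the 36, against 8.49%. The 9 targets not above background were the interleukin genes Il6, Il12b, Il23a and Il10, the chemokine genes Cxcl2, Cxcl3, Cxcl10 and Ccl20, and Lta, which encodes lymphotoxin. Il6 had 6.20, 5.74 and 4.25, so it lay over the limit in replicates 1 and 2 and under it in replicate 3. Il23a (5.10), Il10 (3.10), Cxcl3 (5.10), Ccl20 (4.98) and Lta (5.21) were identical in the arrays and under the limit. Il12b, a subunit of IL-12 and IL-23, had 5.53, 5.53 and 5.28, Cxcl10 had 5.70, 5.38 and 5.27, and Cxcl2 had 5.16, 5.16 and 4.71.

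Among the detected targets, Ptgs2, the inducible cyclooxygenase, had 8.05, 7.08 and 6.79, highest in replicate 1. Vcam1, an adhesion molecule, had 9.10, 8.63 and 8.44, and Il1b, the interleukin 1 beta gene, had 6.61, 6.23 and 6.04, both with the same order. Il1b, Cxcl1, Fas, Csf2 and Ltb were not above the 99th percentile in every array, which left 31 targets above that limit. Nos2, the inducible nitric oxide synthase, had 11.47, 11.77 and 11.97, lowest in replicate 1 as Nfkbia was. Ccr7, the homing receptor of mature dendritic cells, had 10.15, 10.50 and 9.74, and Marcksl1 had 7.33, 7.31 and 6.80. The chemokine genes Ccl4 and Ccl5 spanned 0.485 and 0.448 log2 units. Of the 6 targets spanning more than 0.5 log2 units, 5 were lowest in replicate 3 and Nos2 was highest there. Among all genes above background with such a span, 256 of 315 were lowest in replicate 3. The targets thus stood apart in how often they spanned that much, but not in which array was lowest. Over the 33 detected targets not identical in the arrays, 16 were lowest in replicate 3 and 10 in replicate 1. Over all such genes, 2443 of 6455 (37.8%) were lowest in replicate 3 and 1584 in replicate 1. The mean deviation of the 36 detected targets was 0.043, 0.027 and -0.070. Replicate 3 was also lowest in the NK cell, T cell, macrophage and cell cycle lists and highest in the dendritic cell list. Replicate 1 was highest in stromal markers. The part of these lists in the target values was not tested.

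**Figure D5:**
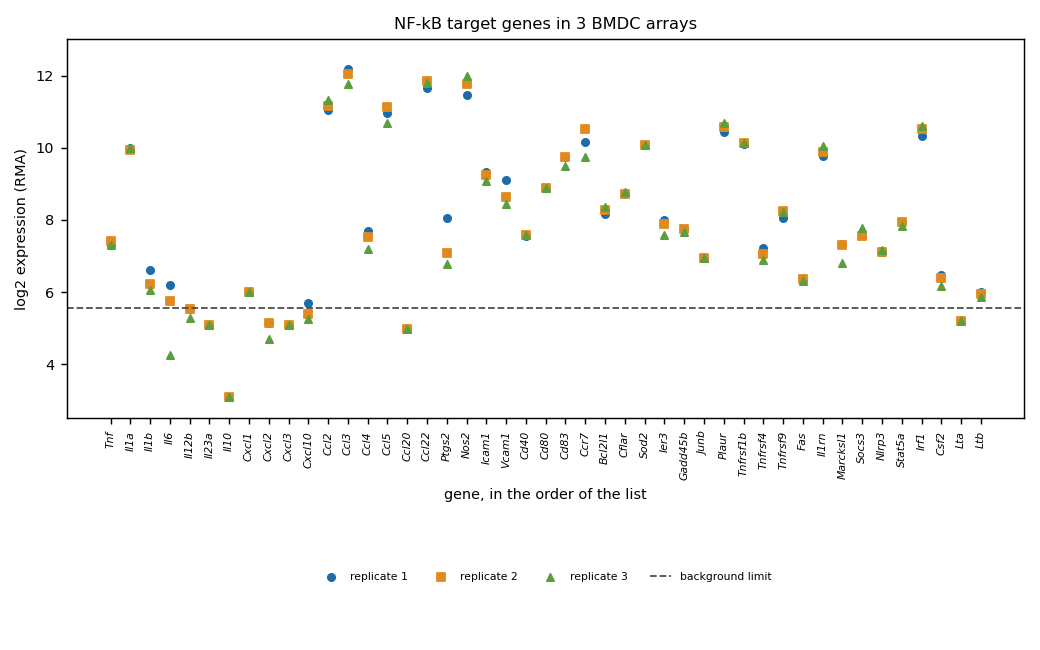
Log2 expression (y axis) of 45 known NF-kB target genes (x axis, in the order of the list) with 1 point per array. The dashed line is the highest of the 3 arrays' background limits, and 9 genes have at least 1 point under their array's limit.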

How the data were processed

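Total RNA of 3 BMDC samples was amplified from 150 ng per sample and labelled with biotin, per the labels' protocols. Log2 expression values were deposited, and the submitters' processing notes name RMA as the method the authors used. RMA corrects background, makes the arrays' distributions alike and summarizes probes by median polish, which can give identical values in several arrays and hide a difference in a single array. The RMA software and the genome build are not given in the sources used here. Of 35556 probe sets, the platform annotation gives 21789 a single gene, lists 1621 with several genes, which were not used, and leaves 12146 unlisted. Each measured member had a single probe set.

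Calls above background, spans (highest minus lowest value) and deviations from the 3-array mean were computed over all 19938 genes with pandas (version 2.3.3), after the steps were tested on simulated data. With 1 group there is no contrast and no p-value, and the number of arrays limits the precision. The members and lists were chosen with earlier results of these data known. All members were named, and of the other pathway lists the genes not above background and up to 8 with the widest span. Alternatives changed the limit, the call, the probe set, the span, the centring and the arrays used. Protein identity between receptors was planned and not run. T cell markers were above background in 8 of 9 cases, NK cell markers in 6 of 10, neutrophil markers in 4 of 10, mast cell and basophil markers in 4 of 8, and stromal markers in 4 of 8. The share over all genes was 60.5%.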

Additional observations from a re-analysis of the deposited data

How the results depend on the processing

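No paired analysis was possible because the samples form a single group. The count of members above background was 46 to 49 over 9 alternatives, and leaving out each replicate in turn gave 48 to 49. Of 441 member calls over these alternatives 435 were unchanged. The 6 others concern Tlr2 and Lbp, which were not above the 99th percentile or the other-tissue limit, and Nfkbiz, which was above background at the 90th percentile or without replicate 3. Other choices of probe set could change nothing, since each member has a single one. The main call needs every array, so the 90th percentile, a call on the mean or leaving out a replicate could only add members. Only the 99th percentile and the other-tissue limit could remove a member, so most of the unchanged calls were fixed in advance. The number of members spanning more than 0.5 log2 units was 1. It was 5 with a span over 0.25 and 0 with a span over 1, and 0 to 1 when a replicate was left out, being 0 without replicate 1 and 0 without replicate 3, where fewer arrays narrow a span by construction. The mean deviations over members were 0.0004, 0.0014 and -0.0019 in replicates 1, 2 and 3, with an SD of 0.0017 between them. They were -0.0068, -0.0025 and 0.0093 with the arrays centred, -0.0132, 0.0045 and 0.0087 over members with 3 different values, and -0.00143, 0.00048 and 0.00095 at the 99th percentile. In replicates 1 and 3 these settings each moved the value by more than the SD and changed its sign. In replicate 2 the sign changed only with the arrays centred, and the move at the 99th percentile was within the SD. No order of the arrays can be read from them. The number of members lowest in replicate 3 was 13, against 11 with the arrays centred on the median of genes above background and 9 among members with 3 different values. Chosen after seeing the data, a 300-base promoter window gave 12 members with the NF-kB consensus (27.9%), against 9.55% of all genes. At 250 bases the shares were 25.6% and 8.23%. The further components above background numbered 50 to 51 and the target genes 31 to 39. Over all genes the share was 60.5% at the main limit, 46.2% at the 99th percentile and 45.3% at the other-tissue limit. The 39 target genes belong to the 90th percentile, for which no share over all genes was computed. Scanner intensities were not used here, so another normalization was not run.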
